A study of Homo sapiens with 40 samples.

Results

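The genes described here encode the protein subunits of the respiratory chain and ATP synthase. They were chosen by gene symbol, by a rule that uses no measured value, with earlier results of these data known. The set is the 13 protein-coding genes of mitochondrial DNA, and 87 protein-coding nuclear genes named as subunits of complexes I to V. These 100 genes stand among 19962 genes in the count table. The nuclear set holds 39 genes of complex I, 4 of complex II, 10 of complex III, 17 of complex IV and 17 of complex V. The mitochondrial set holds 7 genes of complex I, 1 of complex III, 3 of complex IV and 2 of complex V.

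The respiratory chain passes electrons from NADH and succinate to oxygen through complexes I to IV of the inner mitochondrial membrane, and complex V uses the resulting proton gradient to make ATP. Complexes I, III, IV and V join subunits from both genomes, and complex II is encoded in the nucleus alone. Mitochondrial DNA is transcribed from both strands into long RNAs that are cut into single mRNAs, so its genes share their promoters and their polymerase, whereas each nuclear subunit has a promoter of its own. MT-ND6 is the sole mRNA gene read in the opposite sense, and its mRNA is known for lacking a stable poly(A) tail.

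The series measured poly(A) RNA of RKO, a long-established human colon cancer line, in 40 libraries of 10 groups with 4 libraries each. All cells carried doxycycline-inducible Cas9, GFP and a pair of guide RNAs marked by BFP, and all were given 4-thiouridine (s4U) at 250 µM for 2 hours, also the controls. The lines with guides against AAVS1, a control locus outside coding sequence (sgAAVS1), against IGF2BP2 (sgIGF2BP2) and against IGF2BP3 (sgIGF2BP3) were sorted as cell populations, and the labels name no single clones. IGF2BP2 and IGF2BP3 are RNA-binding proteins.

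Each line has a DMSO group and a Dox group, in which Cas9 was induced with doxycycline at 250 ng/mL for 72 hours. The sgIGF2BP2 line also has groups given a non-targeting siRNA (siControl) or a pool of siRNAs against IGF2BP2 (siIGF2BP2), and the sgIGF2BP3 line has siControl and siIGF2BP3, all at 75 nM for 48 hours without Cas9 induction. The siControl groups are thus transfected cells, and the DMSO groups are not. The labels say that each condition was run in quadruplicate, 1 well each, and not whether the wells came from separate cultures, so p-values measure the spread between these libraries, which may be technical.

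Neighbouring mitochondrial genes share bases, which matters below because MT-ATP8 and MT-ND4L were each counted beside the gene they overlap. MT-ATP8 (chrM:8366-8572, plus strand, GRCh38) and MT-ATP6 (chrM:8527-9207), the pair of complex V subunits made in mitochondria, lie on 1 mRNA and overlap by 46 bases. MT-ND4L (chrM:10470-10766) and MT-ND4 (chrM:10760-12137), both of complex I, lie on another and overlap by 7. In the shared stretches, read 5′ to 3′ from GENCODE 29 transcripts, capitals mark the start codon of the downstream gene and the stop codon of the upstream one.
MT-ATP8 and MT-ATP6: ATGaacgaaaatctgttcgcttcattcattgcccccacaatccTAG
MT-ND4L and MT-ND4: ATGcTAA

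Of the 77 nuclear members with enough counts to be tested, 61 were matched to a RefSeq promoter (250 bases before the start to 50 after it, GRCh38.p14). Both strands were searched for 3 short motifs of factors known to act at such promoters. GCATGCGC, the core of the NRF1 site, stood in 11 of the 61 (18%) and in 3.9% of the 15334 promoters of all genes. CCGGAAG, an ETS site bound by GABPA, stood in 19 (31.1%, against 14%), and AAGATGG, the YY1 motif, in 16 (26.2%, against 6.5%). At least 1 of the 3 was present in 35 members (57.4%, against 22%), with a median GC content of 60.3% over the members' windows and 62.7% over all. A match describes these letters only. All 61 members had enough counts to be tested, whereas the 15334 promoters include those of genes that did not. RefSeq and GENCODE place the start within 300 bases of each other in 39 of the 61.

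The promoters of ATP5ME and NDUFS6 are shown because both genes fell in both comparisons of siControl with DMSO described below. They were selected after their values were seen, among such genes with a motif before a start that RefSeq and GENCODE place within 300 bases of each other. Of the 6 genes with such a start among the 8 that fell in both lines, the other 4 (ATP5F1E, COX7B, NDUFB6 and NDUFC1) hold none of the 3 motifs. Capitals mark the NRF1 motif, whose first base lies 78 bases before the start in ATP5ME (chr4:674277-674526, minus strand) and 46 bases before it in NDUFS6 (chr5:1801157-1801406, plus strand).
ATP5ME: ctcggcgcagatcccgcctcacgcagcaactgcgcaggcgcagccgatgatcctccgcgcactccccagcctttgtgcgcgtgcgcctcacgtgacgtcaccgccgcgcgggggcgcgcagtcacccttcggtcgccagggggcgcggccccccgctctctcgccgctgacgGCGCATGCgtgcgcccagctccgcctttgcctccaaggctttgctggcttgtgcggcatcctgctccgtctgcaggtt
NDUFS6: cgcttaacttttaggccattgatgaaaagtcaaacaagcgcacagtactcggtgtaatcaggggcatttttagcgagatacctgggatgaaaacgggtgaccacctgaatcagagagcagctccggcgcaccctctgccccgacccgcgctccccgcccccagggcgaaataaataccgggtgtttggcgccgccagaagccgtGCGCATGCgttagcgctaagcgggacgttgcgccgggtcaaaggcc

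Total counts ranged from 10018181 to 24822807 per library (median 13468792). Counts of single genes are given relative to library size, in CPM, with library sizes corrected with TMM factors (trimmed mean of M-values). A call means an adjusted p under 0.05 in edgeR's quasi-likelihood test, with adjustment over 11428 genes. The targeted genes followed the labels: IGF2BP2 mRNA was at 39.5% of its control level with Dox and at 27.9% with siRNA, and IGF2BP3 mRNA at 31.1% and 14.6%. IGF2BP3 mRNA also fell with Dox in sgIGF2BP2 cells, to 84.3% (adjusted p = 2.93e-06). Of 8 colon epithelial markers, 4 averaged at least 1 CPM (EPCAM, KRT8, KRT18 and CDX2; CPM over all 8 summed to 211 to 311 per library). Of 6 fibroblast markers none did and 3 had no count (sum 0 to 1.10), of 6 leukocyte markers CD68 did (sum 1.14 to 3.62), and of 4 endothelial markers none did (sum 0 to 0.452).

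All 13 mitochondrial mRNAs and 77 nuclear members passed the filter on low counts. Of the other 10 nuclear genes, COX7B2, COX7A1, COX4I2 and COX8C, tissue-restricted forms of complex IV subunits, had no count in any library. COX6A2, COX6B2, NDUFA7, ATP5MGL and the read-through genes ATP5MF-PTCD1 and NDUFC2-KCTD14 were too low to test. Of the 50-base words of NDUFA7, 76.8% also occur in transcripts of other genes, most of all AC010323.1. How reads of shared sequence were counted is not given, so the low count of NDUFA7 may not measure its expression.

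Per base, the mitochondrial mRNAs stood far above the nuclear ones. Levels here are counts per base of transcript, scaled to the same sum in each library (TPM), and are means over 40 libraries. The mitochondrial subunits had median levels of 7678 in complex I (685 to 20580), 18470 in complex IV (16440 to 20900) and 14210 in complex V (6472 to 21940), and MT-CYB, the complex III subunit, stood at 9283. The nuclear subunits had median levels of 102 in complex I, 29.5 in complex II, 105 in complex III, 236 in complex IV and 186 in complex V. Complex II had the lowest median of the 5.

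MT-ATP6 (21940), MT-CO2 (20900) and MT-ND4 (20580) had the highest levels, and MT-ND6 (685), MT-ND3 (4673) and MT-ND5 (6126) the lowest in the mitochondrial set. Among the 77 tested nuclear genes, UQCRH (829), the hinge subunit of complex III, NDUFB9 (783) of complex I and ATP5F1B (719), the catalytic beta subunit of ATP synthase, led. NDUFA4L2 (1.30), NDUFV2 (2.56) and NDUFA9 (3.39) were lowest of the 77, NDUFA9 with a transcript length of 8363 bases in the annotation, which lowers its scaled level. Some of these levels depend on how shared sequence was counted: 39.6% of the 50-base words of NDUFV2 and 29.4% of those of UQCRH also occur in transcripts of other genes, and 49.5% of those of MT-CO1, mostly in the pseudogene MTCO1P12. MT-ND3 and MT-ND4L shared no such word.

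The 13 mitochondrial mRNAs took 8.43% of all counts in the median library (5.86% to 9.12%), and the 87 nuclear members 0.901% (0.843% to 0.981%). Group means of the mitochondrial share lay between 8.05% ± 0.737 (SD, n = 4) in sgAAVS1 Dox and 8.61% ± 0.393 in sgIGF2BP3 siControl, and the ranges of all 10 groups overlapped. In 2 Dox libraries the share was low: 5.86% in sgIGF2BP2 Dox replicate 2, where the other 3 had 8.38% to 9.12%, and 6.99% in sgAAVS1 Dox replicate 2, where the others had 8.23% to 8.68%. Results that rest on these libraries are given below with and without them.

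The nuclear share was lower with siControl than with DMSO. In sgIGF2BP2 cells it was 0.903% to 0.958% with DMSO and 0.874% to 0.886% with siControl, and in sgIGF2BP3 cells 0.899% to 0.917% and 0.856% to 0.873%, with no overlap in either line. Mean nuclear shares were 0.923% ± 0.0239 and 0.883% ± 0.00567 in sgIGF2BP2 cells, and 0.909% ± 0.00935 and 0.863% ± 0.00691 in sgIGF2BP3 cells (SD, n = 4). In siIGF2BP2 cells 3 libraries had 0.863% to 0.897% and replicate 3 had 0.979%, and in siIGF2BP3 cells all 4 lay between 0.843% and 0.876%. Because siIGF2BP2 replicate 3 had a higher nuclear share than the rest of its group, results of that group are also given without it. The choice to leave it out was made after the values were seen. In replicate 3 IGF2BP2 mRNA, at 29.2 CPM, lay close to the 29.6 to 31.7 CPM of the rest of its group. In bulk RNA, fewer cells of a type and less RNA per cell cannot be told apart.

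Within groups, the 12 mitochondrial mRNAs other than MT-ND6 varied together. Over the deviations of log2 CPM from the group mean in 40 libraries, the median Pearson's r of their 66 pairs was 0.93 (0.56 to 0.99). MT-ND6 did not move with them in these libraries, with a median r of -0.011 (-0.070 to 0.30). The 2926 pairs of nuclear members had a median r of 0.28, and nuclear members against the 12 mRNAs a median of -0.14. Libraries, scaling and depth are shared by all these points. Without the 2 libraries of low mitochondrial share (38 libraries) the medians were 0.79 for the 12 mRNAs, 0.48 for MT-ND6 with them and 0.015 for nuclear against mitochondrial members, so the separation of MT-ND6 rests largely on those libraries.

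**Figure D1:**
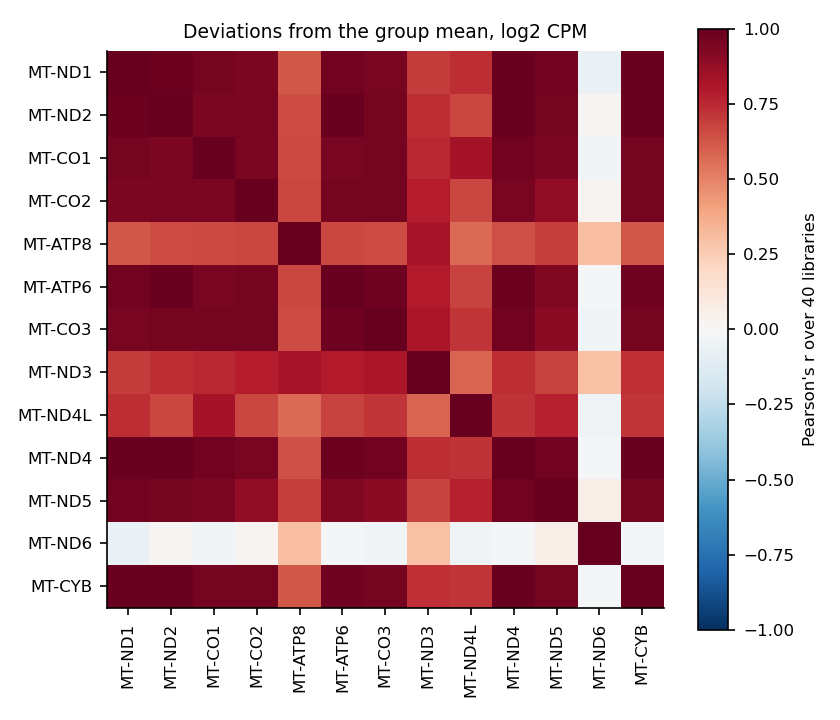
Pearson's r (colour scale from -1 to 1) between the 13 mitochondrial mRNAs, each axis listing the genes in genome order, over deviations of log2 CPM from the group mean in 40 libraries. MT-ND6 has a median r of -0.011 with the other 12, whose own median r is 0.93; MT-ATP8, MT-ND3 and MT-ND4L correlate less strongly than the 9 longer mRNAs (median 0.96).

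With all 40 libraries, the median within-group SD of log2 CPM was 0.14 over the 12 mRNAs. It was 0.079 over the 77 nuclear members and 0.091 over all genes tested. The 2 libraries of low mitochondrial share enter these SDs, which were not computed without them. On the log2 scale, the median deviation of the 12 mRNAs from their means over all libraries was -0.51 in sgIGF2BP2 Dox replicate 2. In sgAAVS1 Dox replicate 2 it was -0.279. The wider mitochondrial spread may thus rest on these 2 libraries. The within-group SD was 0.21 for MT-ATP8, the widest of the 13, and 0.17 for MT-ND6. MT-CO1 (0.078), MT-ND3 (0.096) and MT-ND4L (0.096) varied about as little as other genes.

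The first question is whether Dox, with Cas9 cutting at the control locus, moved these genes. No group was given Dox without Cas9 induction, so effects of Dox and of cutting cannot be told apart. In sgAAVS1 cells few members changed with Dox. Of 77 nuclear members 6 fell and 1 rose (7.79% and 1.30%), against 8.68% and 7.25% of all genes, 15.9% in all. The nuclear median log2 fold change was -0.025 and that of all genes 0.004. Complex V held 4 of the 6 falls, among 15 members tested.

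ATP5MC1, 1 of the genes for the c-ring subunit of ATP synthase, stood at 72.5, 67.9, 66.0 and 63.1 CPM with DMSO and 56.5, 58.0, 57.8 and 62.0 with Dox. All 4 Dox libraries were below the DMSO libraries (log2 fold change -0.20, SE 0.057, adjusted p = 0.00969). ATP5F1D, the delta subunit of the F1 stalk, stood at 206, 210, 212 and 197 CPM with DMSO and 189, 183, 182 and 186 with Dox, again without overlap (log2 fold change -0.15, SE 0.041, adjusted p = 0.00531). UQCRC1, a core subunit of complex III, also fell without overlap (log2 fold change -0.16, SE 0.041, adjusted p = 0.00452), and so did ATP5PD of the peripheral stalk (log2 fold change -0.13, SE 0.047, adjusted p = 0.049). NDUFB6, an accessory subunit of complex I, was the gene that rose (log2 fold change 0.14, SE 0.048, adjusted p = 0.0444), with all 4 Dox libraries above DMSO.

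ATP5MF of ATP synthase (-0.16) and NDUFS7 of complex I (-0.13) also passed, with overlapping groups. Several of these calls depended on single libraries: ATP5MC1 missed the threshold without DMSO replicate 1 (adjusted p = 0.0561), and NDUFB6 without any of DMSO replicates 1 to 3 or Dox replicates 3 and 4. The count of nuclear calls was 7, and ranged from 3 without DMSO replicate 3 (4 without DMSO replicate 1 or 2 or Dox replicate 2) to 12 without DMSO replicate 4.

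Of the mitochondrial mRNAs 11 of 13 had a lower mean with Dox, with a median of -0.086, and none of the 12 passed. MT-ND6 did, in the other direction: it stood at 184.5, 193.5, 203.5 and 247 CPM with DMSO and 247, 288, 221 and 225 with Dox, and the groups overlapped (log2 fold change 0.24, SE 0.087, adjusted p = 0.0489). Without the library of low mitochondrial share, sgAAVS1 Dox replicate 2, no mitochondrial mRNA passed, nor without DMSO replicate 2 or 3. MT-ND6 also missed the threshold without DMSO replicate 1 or Dox replicate 1, by DESeq2, and with counts thinned to the smallest library total. With both low-share libraries left out the median was -0.011.

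In sgIGF2BP2 cells, where the guides target IGF2BP2, 5 nuclear members fell and none rose (6.49% and 0), against 10.4% and 10.0% of all genes, 20.4% in all. NDUFB4 of complex I stood at 111, 110, 111 and 115 CPM with DMSO and 96.6, 97.4, 108 and 102 with Dox, without overlap (log2 fold change -0.15, SE 0.045, adjusted p = 0.0109). NDUFA12 (-0.17), ATP5PF (-0.14), ATP5MF (-0.14) and ATP5F1C (-0.10) passed with overlapping groups. The nuclear median was -0.035, and 49 of 77 had a lower mean with Dox. Without Dox replicate 2, the library of low mitochondrial share, 7 fell and none rose, 64 of 77 had a lower mean and the median was -0.069. The count of calls was 2 without DMSO replicate 3 or Dox replicate 1, and 3 without DMSO replicate 1.

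No mitochondrial mRNA passed with Dox in sgIGF2BP2 cells in the main edgeR fit of all 40 libraries, and 2 of 13 had an unadjusted p under 0.05. By edgeR without the filter on low counts 1 rose and 6 fell, and by DESeq2 none passed. The direction of their median turned on 1 library: it was -0.068 with all libraries and 0.054 without Dox replicate 2. MT-CO1, the core catalytic subunit of complex IV, stood at 17680, 13310, 17490 and 16580 CPM in the 4 Dox libraries. The low second value is that of replicate 2. Of the 13 mRNAs, 2 passed without Dox replicate 1 or 3, and 1 without Dox replicate 2 or DMSO replicate 2 or 3.

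In sgIGF2BP3 cells 1 nuclear member fell and none rose with Dox (1.30% and 0), against 1.01% and 1.64% of all genes, 2.64% in all. NDUFA4, a subunit now placed in complex IV, stood at 139, 134.5, 147 and 142 CPM with DMSO and 131, 121, 119 and 136 with Dox, with 1 Dox library inside the DMSO range (log2 fold change -0.15, SE 0.043, adjusted p = 0.0439). Its gene lies on chromosome 7, 12.37 Mb beyond IGF2BP3 towards the end of the short arm. The call was lost without DMSO replicate 1, 3 or 4 or Dox replicate 2 or 3. No mitochondrial mRNA passed in the main edgeR fit (1 of 13 had an unadjusted p under 0.05), and their median was 0.037. Without DMSO replicate 2 or Dox replicate 4, 1 passed, and without the filter on low counts 2 rose.

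The difference between Dox effects asks what the targeted locus adds to Dox with cutting at AAVS1. Relative to sgAAVS1 cells, 1 nuclear member differed in sgIGF2BP2 cells, downwards (1.30%, against 2.97% of all genes lower, 4.01% higher and 6.97% in all). That gene was NDUFB6 (log2 fold change -0.24, SE 0.069, adjusted p = 0.022). The call was lost without sgAAVS1 DMSO replicate 3, sgAAVS1 Dox replicate 4, sgIGF2BP2 DMSO replicate 1 or sgIGF2BP2 Dox replicate 1. The nuclear median of this difference was -0.005, with 39 of 77 estimates lower. With both low-share libraries left out it was -0.048, with 52 lower. In sgIGF2BP3 cells 4 of 77 differed, 2 each way (2.60% each), against 4.53% higher and 3.25% lower of all genes, 7.78% in all.

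NDUFB6 stood at 61.3, 61.3, 62.4 and 65.4 CPM with DMSO and 54.6, 56.6, 57.4 and 57.7 with Dox in sgIGF2BP3 cells, with all Dox libraries lower, and its effect differed from that in sgAAVS1 cells (log2 fold change -0.28, SE 0.069, adjusted p = 0.00597). NDUFA4 was lower in the same sense (log2 fold change -0.23, SE 0.061, adjusted p = 0.0118), and ATP5MC1 (log2 fold change 0.30, SE 0.08, adjusted p = 0.0129) and ATP5F1D (log2 fold change 0.26, SE 0.058, adjusted p = 0.0031) were higher. Both differences share the sgAAVS1 libraries, in which NDUFB6 rose and ATP5MC1 and ATP5F1D fell. No mitochondrial mRNA differed in either comparison in the main edgeR fit, and none had an unadjusted p under 0.05. All 13 had a higher estimate in sgIGF2BP3 than in sgAAVS1 cells (median 0.11), and this median was 0.059 without sgAAVS1 Dox replicate 2. Without sgIGF2BP2 Dox replicate 2, 3 of the 13 passed in the comparison of sgIGF2BP2 with sgAAVS1 cells, and with both low-share libraries left out none did.

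The siRNA comparisons ask what loss of each mRNA does without Cas9 cutting. After siIGF2BP2, 29 of 77 nuclear members were called, close to the 36.8% of all genes that were. With all libraries 19 rose and 10 fell (24.7% and 13%, against 18.4% and 18.4%). Without siIGF2BP2 replicate 3, the library with the high nuclear share, 6 rose and 15 fell, against 16.4% and 17.4% of all genes, and the nuclear median moved from 0.056 to -0.006. All 10 falls and 6 of the 19 rises passed in both fits.

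Complex I held the largest fall. NDUFA5, an accessory subunit of its peripheral arm (chr7:123536997-123558255, minus strand), stood at 69.6, 62.5, 65.5 and 62.1 CPM with siControl. With siIGF2BP2 it stood at 44.1, 44.0, 50.0 and 45.0 CPM, all 4 libraries below every siControl library (log2 fold change -0.51, SE 0.06, adjusted p = 1.85e-10). In sgIGF2BP3 cells the same gene stood at 63.8, 66.6, 67.4 and 64.6 CPM with siControl and 67.3, 62.9, 63.0 and 64.7 with siIGF2BP3, with overlapping ranges, and the effects of the 2 pools differed (log2 fold change 0.48, SE 0.084, adjusted p = 1.04e-05).

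NDUFA13, also of complex I, fell (log2 fold change -0.29, SE 0.1, adjusted p = 0.0219) from low values of 9.18 to 11.2 CPM to 7.73 to 8.85 CPM, and 28.0% of its 50-base words occur in another gene. The call was lost without siControl replicate 3 or 4 or siIGF2BP2 replicate 4. NDUFA10 and NDUFB9 fell as well (-0.17 and -0.16).

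Of the 4 mRNAs of complex II, the sole complex without a mitochondrially encoded part, 2 fell and none rose. This is 50% and 0, against 18.4% of all genes each way, and with 4 genes it does not set complex II apart. SDHC, a membrane anchor (chr1:161314257-161375340, plus strand), stood at 51.7, 51.4, 52.5 and 52.1 CPM with siControl and 38.9, 40.8, 46.9 and 39.3 with siIGF2BP2. All 4 siIGF2BP2 libraries were lower (log2 fold change -0.32, SE 0.051, adjusted p = 4.31e-07), and the effect of siIGF2BP3 differed (log2 fold change 0.26, SE 0.073, adjusted p = 0.00559). SDHB, the iron-sulfur subunit, also fell (log2 fold change -0.19, SE 0.045, adjusted p = 0.000427), although 1 siIGF2BP2 library lay inside the siControl range. Without replicate 3 the second anchor SDHD passed too (-0.20, adjusted p = 0.0142).

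In complex V, 3 of 15 subunits fell and 6 rose with all libraries (20% and 40%, against 18.4% of all genes each way). The counts were 5 and 1 without replicate 3, against 17.4% and 16.4% of all genes. ATP5F1D (chr19:1241746-1244826, plus strand) stood at 182, 192, 195 and 193 CPM with siControl. With siIGF2BP2 it stood at 144, 144.5, 168 and 146 CPM, again without overlap (log2 fold change -0.34, SE 0.042, adjusted p = 8.79e-10). The catalytic beta subunit ATP5F1B (-0.14) and the gamma subunit ATP5F1C (-0.098) fell by less, and the epsilon subunit ATP5F1E was called higher (0.12). In sgIGF2BP3 cells ATP5F1D stood at 183.5, 179.6, 184 and 182.5 CPM with siControl and 193, 188.5, 199 and 205 with siIGF2BP3, and the effects of the pools differed (log2 fold change 0.44, SE 0.059, adjusted p = 1.75e-08).

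Among the rises, ATP5MC2, another c-ring gene, stood at 198.5, 213, 207.5 and 216 CPM with siControl and 226, 231, 286.5 and 239.7 with siIGF2BP2. The groups did not overlap (log2 fold change 0.24, SE 0.046, adjusted p = 2.37e-05), and replicate 3 was the highest library. Without replicate 3, ATP5F1E, ATP5MC1, ATP5ME, ATP5MF and ATP5PF no longer passed, and ATP5MC2 did (0.16, adjusted p = 0.00232). The third c-ring gene, ATP5MC3 (-0.095, adjusted p = 0.033), and the alpha subunit ATP5F1A (-0.10, adjusted p = 0.024) then passed as lower.

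Replicate 3 was also the highest library for the 3 complex I genes that rose most. NDUFB1 stood at 21.3, 20.6, 22.6 and 22.1 CPM with siControl and 26.4, 25.6, 34.3 and 26.0 with siIGF2BP2, without overlap (log2 fold change 0.38, SE 0.083, adjusted p = 0.000199). NDUFS8, an iron-sulfur subunit, stood at 84.2, 84.7, 89.2 and 90.2 CPM with siControl and 103, 99.3, 114 and 97.5 CPM with siIGF2BP2, also without overlap (log2 fold change 0.25, SE 0.045, adjusted p = 6.63e-06). NDUFA2 rose too (log2 fold change 0.22, SE 0.053, adjusted p = 0.000763). These 3 passed without replicate 3 (0.26, 0.20 and 0.16), whereas UQCR11 of complex III (log2 fold change 0.21, SE 0.071, adjusted p = 0.0135) missed the threshold without it (adjusted p = 0.113) and without siControl replicate 1. Beside NDUFB1, NDUFS8, NDUFA2 and ATP5MC2, the members that rose in both fits were NDUFB2 and UQCRC2.

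Of the mitochondrial mRNAs, 2 complex I subunits fell after siIGF2BP2. MT-ND1 (chrM:3307-4262), part of the proton-pumping membrane arm, stood at 4610, 4624, 4771 and 4339 CPM with siControl and 3724, 3824, 3962 and 3807 with siIGF2BP2, without overlap (log2 fold change -0.26, SE 0.067, adjusted p = 0.00146). MT-ND4L stood at 1424, 1343, 1451 and 1264 CPM with siControl and 1173, 1197, 1097 and 1289 CPM with siIGF2BP2, with overlap of 1 library (log2 fold change -0.20, SE 0.052, adjusted p = 0.00123). MT-ND4, on the same mRNA, had a log2 fold change of -0.059 and did not pass.

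MT-ND6 rose after siIGF2BP2 with overlapping groups (log2 fold change 0.25, SE 0.089, adjusted p = 0.0225). That call was lost by DESeq2, and without siControl replicate 1 or 2 or siIGF2BP2 replicate 1 or 3. The 12 mRNAs other than MT-ND6 had a median of -0.030. The counts of 1 higher and 2 lower of 13 (23.1% called) stand beside 36.8% of all genes.

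After siIGF2BP3, 4 of 77 nuclear members fell and none rose (5.19% and 0), against 1.40% lower, 0.936% higher and 2.34% in all. In all 4 the siIGF2BP3 libraries were below every siControl library, as the groups were apart for 94.0% of the calls over all genes, and 3 of the 4 belong to ATP synthase.

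ATP5PF, a peripheral stalk subunit (chr21:25716503-25735673, minus strand), stood at 80.4, 79.9, 80.0 and 79.6 CPM with siControl and 64.9, 67.5, 68.8 and 65.5 with siIGF2BP3 (log2 fold change -0.26, SE 0.044, adjusted p = 2.23e-05). ATP5F1A, the alpha subunit of the F1 head (chr18:46080248-46104334, minus strand), stood at 538, 547, 562 and 519.5 CPM with siControl and 456, 462, 472 and 487 CPM with siIGF2BP3 (log2 fold change -0.21, SE 0.037, adjusted p = 8.12e-05). ATP5PO, which links the stalk to the F1 head (chr21:33903453-33915980, minus strand), stood at 28.5, 29.1, 28.1 and 29.5 CPM with siControl and 27.7, 22.4, 23.4 and 21.6 CPM with siIGF2BP3, with the first siIGF2BP3 library just below the siControl range (log2 fold change -0.28, SE 0.078, adjusted p = 0.0356).

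The ATP5PO call was lost without any 1 of the 4 siControl libraries or of siIGF2BP3 replicates 2 to 4, and 64.3% of the 50-base words of ATP5PO occur in another annotated gene, AP000311.1. ATP5PF shares 23.1% of its exon bases with GABPA on the opposite strand.

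UQCRC2, the second core subunit of complex III (chr16:21952660-21983660, plus strand), stood at 64.1, 61.1, 64.6 and 59.5 CPM with siControl and 48.5, 52.3, 54.0 and 49.1 with siIGF2BP3 (log2 fold change -0.29, SE 0.055, adjusted p = 0.000329). After siIGF2BP2 it moved the other way, from 63.0, 60.4, 62.0 and 65.6 to 68.9, 67.5, 71.0 and 71.3 CPM (log2 fold change 0.15, SE 0.052, adjusted p = 0.0171), and neither pair of groups overlapped. The difference between the pools passed (log2 fold change -0.44, SE 0.076, adjusted p = 8.51e-06).

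Between the pools 13 of 77 nuclear members differed, 5 higher and 8 lower with siIGF2BP3 (6.49% and 10.4%), against 9.88% and 8.82% of all genes, 18.7% in all. Beside the genes above, ATP5PF (log2 fold change -0.37, SE 0.06, adjusted p = 2.65e-06), NDUFA2 (log2 fold change -0.37, SE 0.078, adjusted p = 0.000208) and ATP5MC2 (log2 fold change -0.27, SE 0.066, adjusted p = 0.00144) were lower with siIGF2BP3 than with siIGF2BP2. Without siIGF2BP2 replicate 3 the split was 10 higher and 5 lower, and the median moved from -0.053 to 0.005. The 2 pools were tested in different lines.

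**Figure D2:**
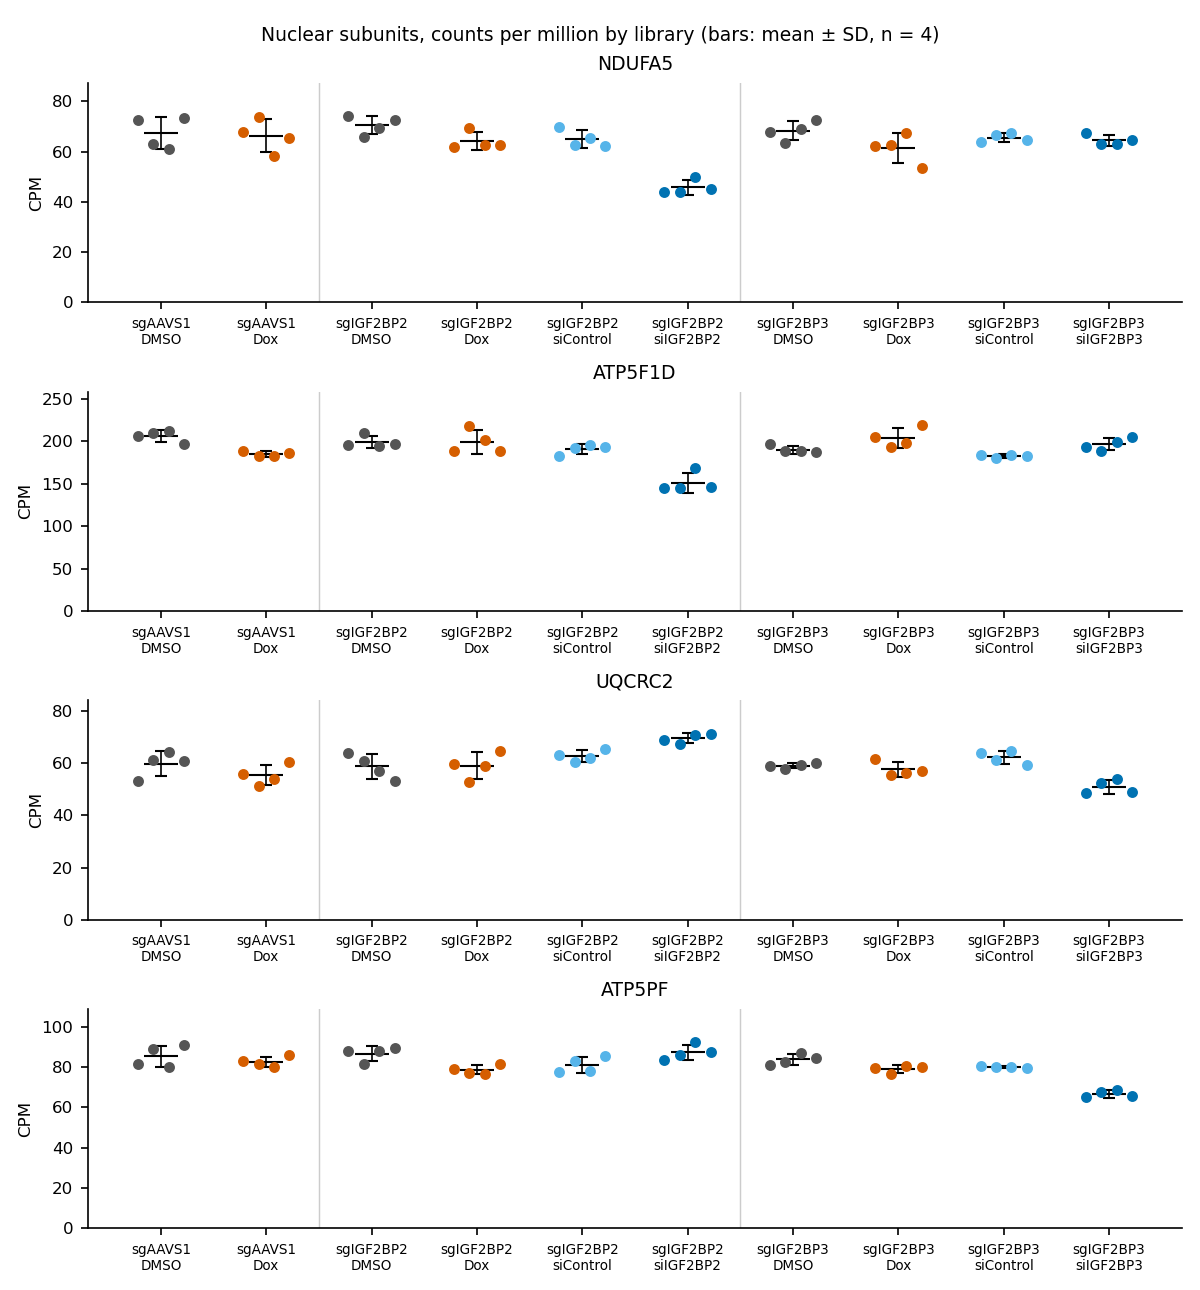
Counts relative to library size (CPM, y axis, from 0) of NDUFA5, ATP5F1D, UQCRC2 and ATP5PF in the 40 libraries of the 10 groups; points are libraries and bars mean ± SD (n = 4). NDUFA5 and ATP5F1D are lower with siIGF2BP2 than with siControl (log2 fold changes -0.51 and -0.34), UQCRC2 and ATP5PF are lower with siIGF2BP3 (-0.29 and -0.26), and none of these pairs of groups overlap.

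MT-ND6 was the mitochondrial mRNA that changed after siIGF2BP3. It stood at 124, 147, 138 and 165 CPM with siControl and 176, 181.5, 195 and 197 with siIGF2BP3, every siIGF2BP3 library higher (log2 fold change 0.38, SE 0.091, adjusted p = 0.00808). The call was lost without siControl replicate 1 and by DESeq2 (adjusted p up to 0.0738). The other 12 had a median of -0.046. No mitochondrial mRNA differed between the pools in the main edgeR fit, and none had an unadjusted p under 0.05. Without the filter on low counts, 3 were higher and 1 was lower with siIGF2BP3.

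The siControl groups differ from the DMSO groups by transfection with a non-targeting siRNA and the labels name no DMSO for them. Most nuclear members were lower with siControl. In sgIGF2BP2 cells 69 of 77 had a lower mean with siControl, 16 fell and none rose (20.8% and 0), against 8.16% lower, 10.2% higher and 18.4% in all. In sgIGF2BP3 cells 63 of 77 had a lower mean, 15 fell and 1 rose (19.5% and 1.30%), against 8.54%, 10.9% and 19.4%. The nuclear medians were -0.083 and -0.067, while those of all genes were -0.002 and -0.004. Each fall was small, at most 0.28 on the log2 scale.

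The share of members that fell varied by complex, in small sets. In sgIGF2BP2 cells 7 of 37 members of complex I, 1 of 10 of complex III, 4 of 11 of complex IV and 4 of 15 of complex V fell, where 1 of 10 is near the 8.16% of all genes. In sgIGF2BP3 cells the counts were 6, 3, 3 and 3, beside 8.54% of all genes. In complex II none of 4 passed in either line, with medians of -0.014 and -0.015 and no unadjusted p under 0.05, and with 4 genes this does not set complex II apart. Without siControl replicate 1 the count in sgIGF2BP2 cells was 10, all lower.

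Of the nuclear members 8 fell in both lines, 50.0% of the 16 and 53.3% of the 15. Over all genes, the 506 that fell in both lines were 54.2% and 51.8% of those that fell in each, so the shared part of the members' calls was near that of all genes. The 8 members were NDUFB6, NDUFC1 and NDUFS6 of complex I, UQCRB of complex III, COX7B of complex IV, and ATP5F1E, ATP5MC3 and ATP5ME of complex V. In each of the 8 the siControl and DMSO libraries did not overlap in either line, and the lines share no library. Of the 16 nuclear calls in each line, 13 in sgIGF2BP2 cells (81.2%) and 16 in sgIGF2BP3 cells had no overlap, against 79.0% and 81.1% of the calls over all genes.

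NDUFS6, a small zinc-binding subunit of complex I, stood at 109, 113, 113 and 102 CPM with DMSO and 91.0, 97.0, 99.2 and 98.0 with siControl in sgIGF2BP2 cells (log2 fold change -0.18, SE 0.048, adjusted p = 0.00363). In sgIGF2BP3 cells it stood at 106, 106, 108.5 and 106 CPM with DMSO and 87.8, 85.1, 84.7 and 95.3 CPM with siControl (log2 fold change -0.28, SE 0.05, adjusted p = 1.97e-05). All 8 siControl libraries were below all 8 DMSO libraries.

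ATP5ME, a membrane subunit of ATP synthase, stood at 107, 113, 112 and 107 CPM with DMSO and 89.6, 90.7, 101 and 104 with siControl in sgIGF2BP2 cells (log2 fold change -0.20, SE 0.051, adjusted p = 0.00354). In sgIGF2BP3 cells the values were 103, 103, 107 and 101.5 CPM with DMSO and 83.4, 87.6, 89.1 and 91.4 CPM with siControl (log2 fold change -0.23, SE 0.053, adjusted p = 0.000631). The fall was seen in every library of both lines, although 61.6% of the exon bases of ATP5ME overlap MYL5 on the opposite strand and it is not given whether counting used strand.

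UQCRB, a small subunit of complex III that lacks redox groups, stood at 255, 231, 236 and 228 CPM with DMSO and 214, 196, 219 and 213 with siControl in sgIGF2BP2 cells (log2 fold change -0.17, SE 0.039, adjusted p = 0.000844). In sgIGF2BP3 cells the values were 216, 230.1, 233.5 and 233 CPM with DMSO and 202, 188, 188 and 202 CPM with siControl (log2 fold change -0.23, SE 0.04, adjusted p = 9.85e-06).

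The largest falls that passed beside these were COX6A1 (-0.21), NDUFC1 (-0.21), NDUFB3 (-0.20) and ATP5F1E (-0.19) in sgIGF2BP2 cells. Without siControl replicate 1, COX6A1 and NDUFB3 no longer passed (highest adjusted p over the alternatives 0.111 and 0.118), nor did NDUFB3 without siControl replicate 2 or DMSO replicate 1 or 3. In sgIGF2BP3 cells they were NDUFA12 (-0.28) and NDUFB6 (-0.22). COX7A2L, which takes part in joining complexes III and IV, was the gene that rose (0.14), and it missed the threshold without DMSO replicate 2 or 4 or siControl replicate 1.

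The mitochondrial mRNAs were split in direction. In both lines 7 of 13 had a higher mean with siControl, with medians of 0.003 and 0.055, and 2 of 13 fell (15.4%): MT-ATP8 and MT-ND6. Over all genes 8.16% and 8.54% fell, and 18.4% and 19.4% were called. These counts depend on the fit of all libraries together. With only the groups compared, 1 rose and 5 fell in sgIGF2BP2 cells, and 6 rose and 4 fell in sgIGF2BP3 cells. The share of all genes called in those fits is not given here.

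MT-ATP8 stood at 957, 932, 1018 and 964 CPM with DMSO and 597, 611, 903 and 797 with siControl in sgIGF2BP2 cells (log2 fold change -0.42, SE 0.1, adjusted p = 0.00164). In sgIGF2BP3 cells it stood at 678, 866, 856 and 907 CPM with DMSO and 464, 462, 506 and 662 CPM with siControl (log2 fold change -0.66, SE 0.1, adjusted p = 8.37e-07). Neither pair of groups overlapped. MT-ATP6, which shares the mRNA and 46 bases with MT-ATP8, stood at 8626, 9066, 9354 and 9696 CPM with DMSO and 8236, 8309, 8961 and 8262 with siControl in sgIGF2BP2 cells. In sgIGF2BP3 cells it stood at 8419, 8687, 9053 and 9360 CPM with DMSO and 8144, 8536, 8411 and 9083 with siControl. The ranges overlapped in both lines and neither difference passed (-0.12 and -0.056).

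MT-ND6 stood at 161, 193, 243 and 223 CPM with DMSO and 140.5, 166, 188 and 199 with siControl in sgIGF2BP2 cells, with overlap (log2 fold change -0.26, SE 0.088, adjusted p = 0.0297). The call was lost without DMSO replicate 3 or 4 or siControl replicate 1 or 2, by DESeq2, and with counts thinned to the smallest library total. In sgIGF2BP3 cells the values were 192, 272, 205.5 and 239.7 CPM with DMSO and 124, 147, 138 and 165 CPM with siControl, without overlap (log2 fold change -0.66, SE 0.09, adjusted p = 3.1e-08). These comparisons share the siControl libraries with the siRNA comparisons above, so a low siControl level of MT-ND6 enters both, and they share the DMSO libraries with the Dox comparisons. The siIGF2BP2 libraries, at 216.5, 198, 214 and 192 CPM, lay inside the DMSO range of their line. With siIGF2BP3 the 2 lower libraries lay below the DMSO range of theirs and the 2 higher ones inside it.

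Relative to MT-CO1, MT-ND6 was lowest with siControl and highest with Dox in both targeted lines. The mean log2 ratio of their CPM was -6.94 ± 0.13 with siControl, -6.20 ± 0.23 with DMSO and -5.89 ± 0.11 with Dox in sgIGF2BP3 cells, and -6.67 ± 0.23, -6.37 ± 0.22 and -6.09 ± 0.28 in sgIGF2BP2 cells (SD, n = 4). Neighbouring groups in this order differed by less than the sum of their SDs, except siControl and DMSO in sgIGF2BP3 cells. With sgIGF2BP2 Dox replicate 2, a library of low mitochondrial share, left out, the Dox mean of that line was -6.22 ± 0.12 (SD, n = 3).

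Most histone mRNAs also lack a poly(A) tail. The counts of 57 histone genes, a sum selected after the values of MT-ND6 were seen, were lower with siControl than with DMSO, as MT-ND6 was. Their sum, in CPM of all counts, was 211.5 ± 6.99 with DMSO and 184.9 ± 6.06 with siControl in sgIGF2BP2 cells, and 201.6 ± 5.63 and 186.0 ± 3.39 in sgIGF2BP3 cells, without overlap in either line (SD, n = 4). With Dox it was 255.8 ± 19.8 in sgIGF2BP2 cells, 196.8 ± 4.40 in sgIGF2BP3 cells, and 245.1 ± 12.6 in sgAAVS1 cells, where DMSO had 213.1 ± 2.2. With siIGF2BP2 (166.6 ± 11.5) and siIGF2BP3 (171.8 ± 9.14) it was lower than with siControl, whereas MT-ND6 was higher. Within groups, deviations of MT-ND6 and of this sum had an r of 0.044 over 40 libraries. The part of poly(A) selection in these values was not tested.

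**Figure D3:**
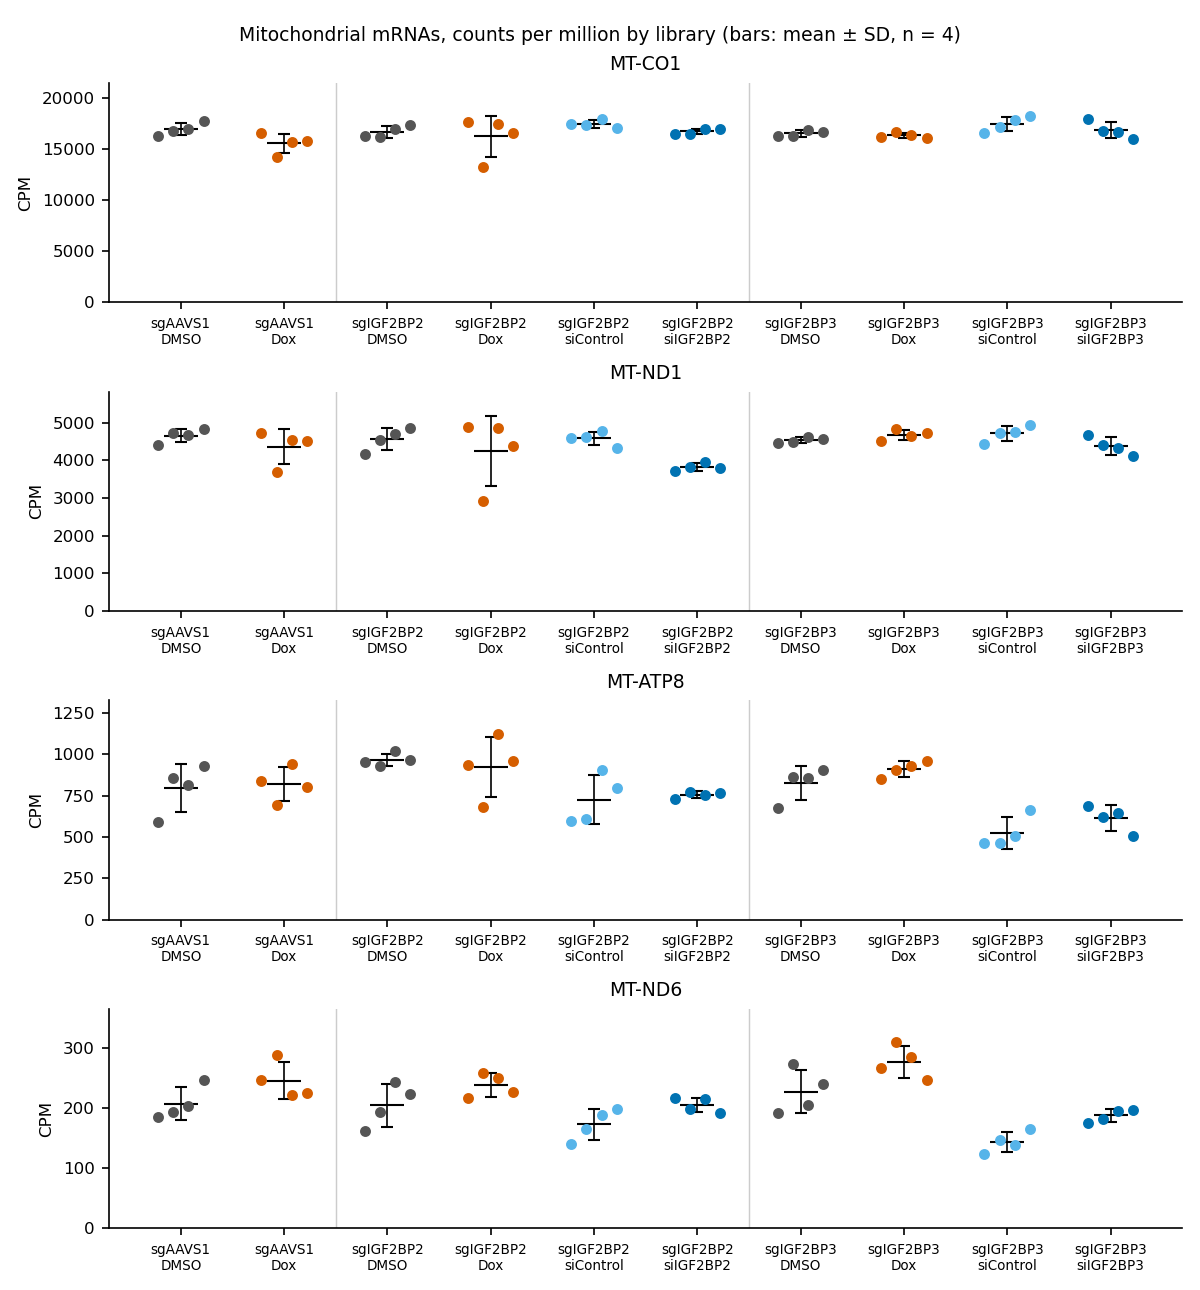
Counts relative to library size (CPM, y axis, from 0) of MT-CO1, MT-ND1, MT-ATP8 and MT-ND6 in the 40 libraries of the 10 groups; points are libraries and bars mean ± SD (n = 4). MT-ATP8 and MT-ND6 are lower with siControl than with DMSO in sgIGF2BP3 cells without overlap (log2 fold changes -0.66 and -0.66), MT-ND1 is lower with siIGF2BP2 than with siControl (-0.26), and MT-CO1 overlaps between DMSO and siControl in both lines.

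With both libraries of low mitochondrial share left out, more mitochondrial mRNAs passed in the siControl comparisons. In sgIGF2BP2 cells MT-CO3 rose (0.15), and MT-ATP6 (-0.12) and MT-ND2 (-0.15) fell beside MT-ATP8 and MT-ND6. In sgIGF2BP3 cells MT-CO2 (0.11), MT-CO3 (0.14), MT-CYB (0.14) and MT-ND5 (0.18) rose and MT-ND3 (-0.13) fell beside the same 2. Neither of the libraries left out belongs to the groups compared.

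**Figure D4:**
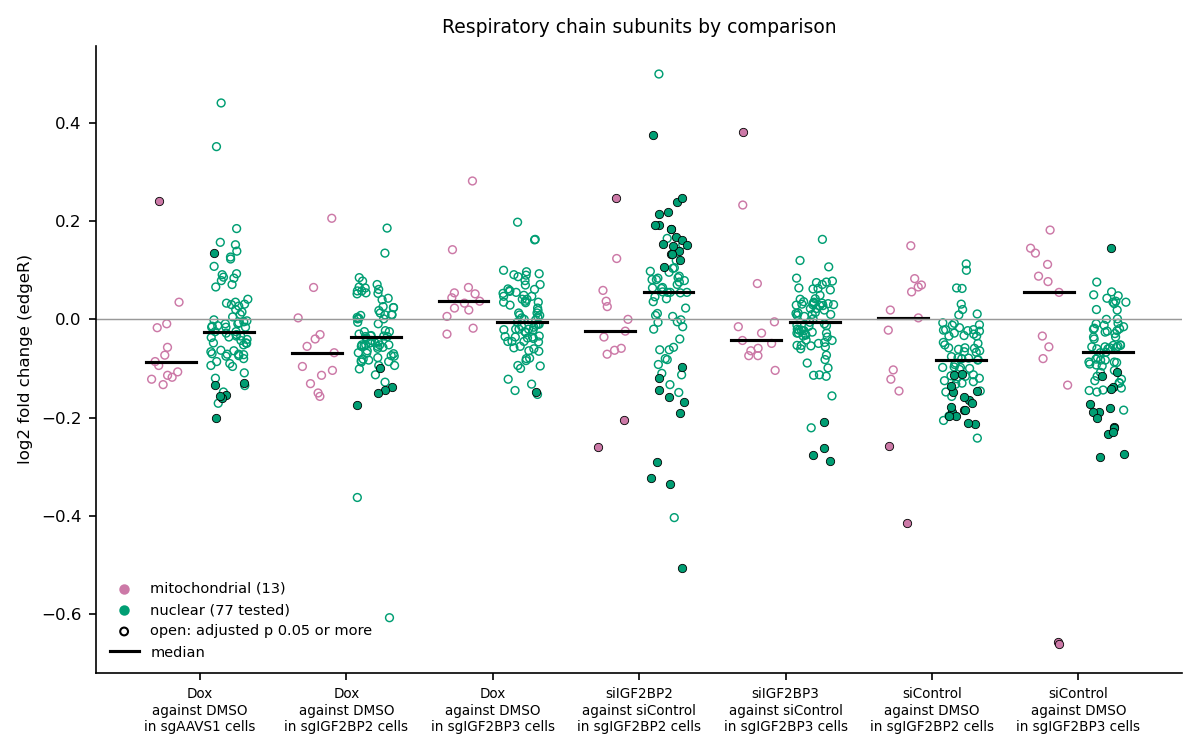
Log2 fold change (edgeR, y axis) of each of the 13 mitochondrial and 77 tested nuclear members in 7 comparisons; filled points passed an adjusted p of 0.05, open points did not, and bars are medians. In the 2 comparisons of siControl with DMSO the nuclear members lie mostly below 0 (69 and 63 of 77) while the mitochondrial medians are at 0.003 and 0.055.

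Genes that serve the respiratory chain were described from 5 lists, each read beside the share of all genes. After siIGF2BP2, 40% of 30 factors of mitochondrial transcription and mRNA handling were called, near the 36.8% of all genes, and 11 fell and 1 rose, against 18.4% of all genes each way. LRPPRC, which with SLIRP stabilises mitochondrial mRNAs, fell most (-0.51), followed by the helicase SUPV3L1 (-0.39) and the poly(A)-trimming enzyme PDE12 (-0.38), and FASTK rose (0.20). Without siIGF2BP2 replicate 3, 13 fell and 1 rose. Of 17 quality control genes 7 fell and 3 rose (58.8% called), and 9 fell and 3 rose without replicate 3, led by the chaperone HSPA9 (-0.58) and the stress factor ATF5 (-0.43), with the protease LONP1 among the rises (0.17).

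Of 50 assembly factors 13 rose and 4 fell after siIGF2BP2 (34% called, near the 36.8% of all genes), and 7 rose and 3 fell without replicate 3, when 33.7% of all genes were called. COX16 (0.51) and COX20 (0.34) rose and COX10 (-0.33), which makes the heme of complex IV, fell. Of 18 genes of mitochondrial DNA maintenance 6 fell, such as the helicase TWNK (-0.25), and 3 rose (6 and 1 without replicate 3). Of 13 nuclear regulators MYC (-0.50), GABPA (-0.20) and YY1 (-0.16) fell and NRF1 (0.24) and TFE3 (0.12) rose, and without replicate 3 GABPA (adjusted p = 0.0693) and NRF1 (adjusted p = 0.0544) no longer passed.

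After siIGF2BP3 the same lists gave 1 call, RRM2B (-0.19), which supplies deoxynucleotides, where 2.34% of all genes were called. The effects of the pools differed for LRPPRC (0.52), HSPA9 (0.52) and MYC (0.54).

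Between siControl and DMSO, 5 of the 30 mRNA factors fell and 1 rose in sgIGF2BP2 cells, and 4 fell and 2 rose in sgIGF2BP3 cells. This is 20% of the list in each line, near the 18.4% and 19.4% of all genes. SLIRP (-0.27 and -0.27) and TFAM (-0.20 and -0.26), which packages mitochondrial DNA and starts its transcription, fell in both lines, and LRPPRC rose in both (0.12 and 0.089). Assembly factors had 7 falls and 1 rise (16% called), and 4 falls and no rise (8%). Of 17 quality control genes 6 fell and 1 rose in sgIGF2BP2 cells (41.2% called, against 18.4% of all genes). In sgIGF2BP3 cells 2 fell and 1 rose (17.65%, against 19.4%). HSPE1 (-0.23 and -0.17) and HSPD1 (-0.16 and -0.15), which form the matrix folding chamber, fell in both lines, and LONP1 rose in both (0.16 and 0.23). NRF1 fell in sgIGF2BP2 cells (-0.31).

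With Dox, 4 of 50 assembly factors fell and 2 rose in sgAAVS1 cells, 3 fell and 1 rose in sgIGF2BP2 cells (12% and 8% called, below the 15.9% and 20.4% of all genes), and none passed in sgIGF2BP3 cells by edgeR (5 had an unadjusted p under 0.05). RRM2B, a p53 target, rose in sgAAVS1 (0.35) and sgIGF2BP2 cells (0.61), while TFAM fell in sgIGF2BP2 cells (-0.18) and the mitochondrial RNA polymerase POLRMT in sgAAVS1 cells (-0.14). MYC fell in sgAAVS1 (-0.41) and rose in sgIGF2BP2 cells (0.19). These comparisons of the lists describe counts and were not tested against other genes.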

How the data were processed

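Poly(A) RNA of 40 libraries was measured. The deposited values are the authors' read counts per gene, whole numbers without normalization, in 1 table. Per the submitters' processing notes, bcl2fastq 2.20.0.422, STAR 2.7.5c and hg38 were used; the counting tool, annotation and use of strand are not given in the sources used here. Per the labels' protocols, the libraries were directional, from s4U-treated, alkylated RNA. New and old RNA were not separated here.

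Members were found by symbol through GENCODE 29, which held 19847 of 19962 genes. The members and lists were chosen with earlier results of these data known. Genes were filtered with filterByExpr, leaving 11428 genes with 99.98% of counts. The main test was edgeR 4.0.16's quasi-likelihood test (R 4.3.3) on all 40 libraries with 1 coefficient per group, TMM factors (0.978 to 1.03) and Benjamini-Hochberg adjustment. The SE is the absolute log2 fold change over the square root of F, with 30 residual degrees of freedom. The common biological coefficient of variation was 3.79%. Between replicates the chi-square per gene was 1.49 to 16.6, above sampling noise, and each library counts as 1 replicate. Shares and levels are summed over counts, without a test.

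On simulated data for siIGF2BP2 against siControl with 11293 genes, 57.6% of 99 genes changed 1.2-fold and 92% of 100 changed 1.5-fold were recovered, with 10 false calls. The simulation drew each gene independently, changed few genes and gave every other group the siControl level. Shifts that genes of a library share were not simulated, so these rates may not hold for the measured data.

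Named were all 13 mitochondrial mRNAs, up to 5 nuclear members called in each direction per comparison with the largest change, members beyond IGF2BP3 on chromosome arm 7p or SPOP on 17q (the latter described where called), untested and read-through members, the 3 highest and 3 lowest by level, and up to 3 called genes per list and direction. The members lower in both siControl comparisons, the members that kept or lost calls without siIGF2BP2 replicate 3, and the histone sum were chosen after their values were seen.

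Alternatives were RLE factors, library sizes without mitochondrial mRNAs, no filter, thinning to the smallest total, a replicate block, only the groups compared, DESeq2 1.42.0, leaving out each library, and, chosen after seeing the data, leaving out both libraries of low mitochondrial share. Promoters are RefSeq's (GRCh38.p14). Figures were drawn with matplotlib 3.10.9.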

Additional observations from a re-analysis of the deposited data

Results flagged for a closer look

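In groups of 4 libraries, 8 of 160 sets of values had 1 library whose distance from the nearest other took up most of the group's range (Dixon's criterion), and chance gives about 1 in 20. In sgIGF2BP2 siIGF2BP2, replicate 3 was apart for MT-ND2 (4925 CPM), MT-CO2 (9854 CPM), MT-ATP6 (9484 CPM) and MT-ND3 (1008 CPM). In sgIGF2BP2 siControl, replicate 3 was apart for MT-ATP6 (8961 CPM) and replicate 2 for the share of counts in the nuclear members (0.874%). MT-ND3 was apart in sgAAVS1 Dox replicate 2 (898 CPM), 1 of the libraries of low mitochondrial share, and MT-ND4L in sgIGF2BP3 DMSO replicate 1 (1362 CPM). The criterion flagged the mitochondrial share in no group, nor the nuclear share of siIGF2BP2 replicate 3. The libraries left out above were thus chosen from their values and not by this criterion.

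The Dox effect differed from that in sgAAVS1 cells by the model's test of the difference for NDUFB6 in sgIGF2BP2 cells (-0.24 on the log2 scale), and in sgIGF2BP3 cells for NDUFA4 (-0.23), NDUFB6 (-0.28), ATP5MC1 (0.30) and ATP5F1D (0.26).

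The effect of siIGF2BP3 differed from that of siIGF2BP2 for 13 nuclear members by the same test. It was higher for NDUFA5 (0.48), ATP5F1D (0.44), SDHC (0.26), NDUFA6 (0.20) and NDUFA10 (0.14). It was lower for UQCRC2 (-0.44), NDUFA2 (-0.37), ATP5PF (-0.37), ATP5PO (-0.34), ATP5MC2 (-0.27), COX6B1 (-0.26), NDUFS8 (-0.21) and ATP5F1A (-0.15). Of these, NDUFA6 and NDUFA10 lost the call in 14 of 24 alternatives each, and ATP5PO without siIGF2BP3 replicate 4. Without siIGF2BP2 replicate 3, ATP5PO (adjusted p = 0.0978), NDUFS8 (adjusted p = 0.0593) and ATP5F1A (adjusted p = 0.131) no longer passed.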

How the results depend on the processing

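Of 61 results for single members, 38 kept their call under every alternative, 23 lost it in at least 1 and none reversed. Of 368 values of counts, 300 lay within 1.5 times. RLE factors and library sizes without mitochondrial mRNAs moved no count beyond that. Where a count moved, the cause was not tested.

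Counts of mitochondrial mRNAs called, in the order Dox in sgAAVS1, Dox in sgIGF2BP2, Dox in sgIGF2BP3, siIGF2BP2, siIGF2BP3, siControl in sgIGF2BP2 and siControl in sgIGF2BP3 cells, were 1, 0, 0, 3, 1, 2 and 2. Without the filter they were 6, 7 and 2 for Dox, 2 for siIGF2BP3, 6 and 7 for siControl and 4 for the difference between the pools. With only the groups compared they were 4, 1 and 2 for Dox, 3 for siIGF2BP3, 6 and 10 for siControl and 1 between the pools, and the nuclear counts for siControl were 25 and 27 in place of 16 and 16. Thinned, they were 0 for Dox in sgAAVS1, 2 for Dox in sgIGF2BP2 and 1 for siControl in sgIGF2BP2 cells, and the nuclear count for Dox in sgIGF2BP3 cells was 0. By DESeq2 they were 0 for Dox in sgAAVS1, 0 for siIGF2BP3 and 1 for siControl in sgIGF2BP2 cells. Without both libraries of low mitochondrial share they were 0, 1 and 1 for Dox, 5 and 7 for siControl and 2 between the pools.

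Leaving out 1 library at a time gave mitochondrial counts of 0 to 1, 0 to 2 and 0 to 1 for Dox, 2 to 3 for siIGF2BP2, 0 to 1 for siIGF2BP3, 1 to 3 and 2 to 3 for siControl, 0 to 3 and 0 for the differences between Dox effects and 0 between the pools. The nuclear counts were 3 to 12, 2 to 7 and 0 to 1 for Dox, 20 to 30 for siIGF2BP2, 3 to 4 for siIGF2BP3, 10 to 21 and 11 to 14 for siControl, 0 to 2 and 4 to 6 for the differences between Dox effects and 10 to 15 between the pools.

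Same-numbered libraries correlated between -0.109 and 0.112 over 28 pairs, and 1 pair was over 0.1. Of 28 libraries 10 were best matched by their own number, mostly in the comparisons of siControl with DMSO. In sgIGF2BP2 cells every siControl library was best matched by the DMSO library of its own number (r of 0.112, 0.087, 0.051 and 0.05). In sgIGF2BP3 cells replicates 1, 2 and 4 were (0.073, 0.019 and 0.071), and replicate 3 was not. The labels do not say whether these libraries were paired. With the replicate block, the mitochondrial counts were 2, 2 and 1 for Dox, and no other count moved beyond 1.5 times.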

Other observations

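Among 17 quality control genes, 5 fell and 1 rose with Dox in sgAAVS1 cells (35.3% called, against 15.9% of all genes), with falls of the prohibitin PHB (-0.23 on the log2 scale) and the protease LONP1 (-0.19) and a rise of CLPX (0.16). In sgIGF2BP2 cells 3 fell and 2 rose with Dox (29.4%, against 20.4% of all genes), among them HSPE1 (-0.19) and ATF5 (0.20). Of 18 genes of mitochondrial DNA maintenance, 3 fell and 1 rose in sgAAVS1 cells and 2 fell and 2 rose in sgIGF2BP2 cells, 22.2% of the list in each. POLG2, the accessory subunit of the mitochondrial DNA polymerase, fell in the first (-0.37), and TYMP, a thymidine-degrading enzyme, rose in the second (0.32).

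Between siControl and DMSO, 2 genes of mitochondrial DNA maintenance fell in sgIGF2BP2 cells, SUCLG1 (-0.14) and TOP1MT (-0.11), and 4 fell in sgIGF2BP3 cells, among them SUCLG1 (-0.18) and RNASEH1 (-0.19), 11.1% and 22.2% of the list against 18.4% and 19.4% of all genes. Of 13 nuclear regulators none fell and 2 rose in sgIGF2BP3 cells, CREB1 (0.24) and ESRRA (0.17), 15.4% of the list. MYC was among the regulators whose Dox effect differed from that in sgAAVS1 cells, in both sgIGF2BP2 (0.59) and sgIGF2BP3 cells (0.47), and these differences share the sgAAVS1 libraries.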
